A study of Mus musculus with 24 samples.

Results

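The endoplasmic reticulum (ER) chaperone and unfolded protein response genes form a module of 33 genes, taken by gene symbol from the deposited count table of 23478 symbols. All 33 were in the table, and 32 were among the 12625 genes with enough counts to be tested. Derl3, a member of the derlin family, was not tested: it was listed at 0 in all Tumor shRenilla and Tumor shAsns-1 libraries and averaged at most 0.0259 counts per 1000000 counts of a library (CPM) in any group. The members are the lumenal chaperones and their helpers, the sensors and transcription factors of the response, the degradation machinery and the protein entry channel of the ER.

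The 24 libraries came from 4T1-T, a mouse mammary carcinoma line, in 6 groups of 4 libraries (replicates A to D). Cells recovered from primary tumors (Tumor) or from lung metastases (Lung) by 6TG selection carried 1 of 3 short hairpins: shAsns-1 and shAsns-2, both directed at the asparagine synthetase gene Asns, or shRenilla, directed at a luciferase that mouse cells do not have. All groups shared the shRNA infection, the 6TG selection and growth in DMEM to which non-essential amino acids were added. Separate mice or cultures for the replicates are not stated, and neither are the strain and age of the hosts or whether a line is 1 clone or a pool. The p-values therefore reflect library-to-library spread only, part or all of which may be technical. The totals ran from 8480908 counts in Tumor shAsns-2 A to 38049196 in Tumor shAsns-2 B. Replicate B of Lung shRenilla and replicate D of Lung shAsns-2 stood apart from the rest of their groups in a principal component analysis. They are called the far libraries below, and counts without both are given where they differ. The first component held 38.8% of the variance. On it the 4 Tumor shAsns-1 libraries, at −21.6 to −14.3, lay within the lung range of −27.0 to 0.199. The other tumor libraries were at 32.4 to 43.7. The part of this wider difference in the member results was not tested.

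Asns itself checked the labels. It averaged 82.8 ± 15.9 CPM (SD, n = 4) in Tumor shRenilla, 170 ± 17.1 in Tumor shAsns-1 and 36.8 ± 10.3 in Tumor shAsns-2. In the lung cells it averaged 63.6 ± 7.89, 194 ± 18.2 and 44.6 ± 6.51 CPM in the same order. Asns was therefore higher, not lower, in the libraries labelled shAsns-1, and every direction given for them is a difference between labels.

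Proteins that enter the secretory pathway are folded in the ER lumen by chaperones, lectins and disulfide isomerases. When unfolded protein accumulates, the membrane sensors IRE1 (gene Ern1), PERK (gene Eif2ak3) and ATF6 raise the folding and degradation capacity through the transcription factors XBP1, ATF4 and cleaved ATF6. Secretory cells rely heavily on this system, and Hspa5, which encodes the chaperone BiP, is its most used reporter gene.

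Per kilobase of merged exons, a few chaperones and disulfide isomerases had the highest levels of the module. In Tumor shRenilla the mean level of Hspa5 was 786 ± 139 CPM per kilobase (SD, n = 4), followed by the membrane lectin Canx at 525 ± 138, the HSP90 family chaperone Hsp90b1 at 391 ± 68.7, and the disulfide isomerases P4hb at 275 ± 49.6 and Pdia3 at 249 ± 56.8. The mean ± SD ranges of neighbours in this order overlapped. Within each of the 4 libraries the first 4 genes kept this order, whereas Pdia3 was above P4hb in replicate A. The sensors were at the other end on this scale, with Atf6 at 9.45 ± 1.00, Eif2ak3 at 2.26 ± 0.39 and Ern1 at 0.40 ± 0.04 CPM per kilobase. Some chaperone helpers lay near them, among them Sdf2l1 at 11.2, Dnajb9 at 10.5 and Hyou1 at 2.91 CPM per kilobase. In Tumor shAsns-1 the order of the leading pair was the other way round, with Canx at 440 and Hspa5 at 368 CPM per kilobase.

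In the tumor-derived cells, the libraries labelled shAsns-1 had less RNA of most chaperones than the shRenilla libraries. Of the 32 members tested, 18 were lower and 2 were higher at an adjusted p under 0.05 (edgeR's quasi-likelihood test with Benjamini-Hochberg adjustment, used for every adjusted p here). Among all genes tested 17.7% were lower and 16.2% were higher. The median log2 fold change of the members was −0.42, against −0.01 over all genes. The 4 Tumor shAsns-1 libraries lay below all 4 Tumor shRenilla libraries for 18 members, which is so for 18.6% of all genes. Leaving out 1 library at a time gave 15 to 23 members called, and leaving out both far libraries gave 24. The calls over all 12625 genes moved as well. They were 2237 lower and 2041 higher with all libraries. Either way, 3438 to 5175 genes were called with 1 library left out and 5740 without both far libraries. In bulk RNA, fewer cells of a type and less RNA per cell cannot be told apart.

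Hspa5 (chr2:34771970-34777547, plus strand) fell furthest. Its level was 4102, 3165, 3352 and 2683 CPM in Tumor shRenilla A to D and 1758, 1356, 1644 and 1466 CPM in Tumor shAsns-1 A to D. Every shAsns-1 library was below every control library, and the highest control was replicate A. The log2 fold change was −1.10 ± 0.20 (SE; adjusted p = 0.000123, edgeR), or 2.14-fold lower.

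Among the disulfide isomerases, Pdia3 and P4hb fell most. Pdia3, which pairs with calnexin and calreticulin on glycoproteins, was at 1034, 760, 718 and 618 CPM in Tumor shRenilla and at 462, 279, 431 and 354 CPM in Tumor shAsns-1. The groups did not overlap, and the log2 fold change was −1.04 ± 0.22 (SE; adjusted p = 0.000644, edgeR). P4hb, the classical protein disulfide isomerase, was at 916, 870, 769 and 596 CPM against 449, 401, 446 and 400 CPM. The spread of P4hb in the shAsns-1 libraries was narrow and all 4 were below the lowest control, with a log2 fold change of −0.89 ± 0.16 (SE; adjusted p = 0.000118, edgeR). Pdia4, another isomerase of the family, was at 213, 171, 141 and 134 CPM against 110, 74.9, 108 and 90.6 CPM. It fell by 0.78 ± 0.19 on the log2 scale (SE; adjusted p = 0.00217, edgeR), again without overlap.

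Dnajb11 encodes ERdj3, the J-domain partner that hands unfolded clients to BiP. It was at 193, 166, 177 and 145 CPM in Tumor shRenilla and at 97.5, 75.7, 93.3 and 82.4 CPM in Tumor shAsns-1, a log2 fold change of −0.97 ± 0.15 (SE; adjusted p = 2.08e-05, edgeR). Sec61a1, the pore-forming subunit of the channel through which new proteins enter the ER, was at 177, 154, 128 and 121 CPM against 74.0, 68.2, 77.8 and 68.0 CPM. Both genes were lower in every shAsns-1 library than in any control, and Sec61a1 had a log2 fold change of −1.01 ± 0.21 (SE; adjusted p = 0.000706, edgeR).

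The other lower members had log2 fold changes from −0.74 to −0.35. They were the chaperones Hsp90b1 and Calr, the isomerases Pdia6 and Txndc5, the BiP helpers Dnajb9 and Hyou1, and Creld2, an ER stress-induced folding factor. The degradation components Derl1, Herpud1 and Sel1l, the signal sequence receptor subunit Ssr1 and the eIF2α phosphatase subunit Ppp1r15b completed the list. Calls near the threshold depended on single libraries. Dnajb9 (adjusted p = 0.0473) lost its call in 17 of 32 alternatives, with adjusted p up to 0.303. Hsp90b1 lost it without Tumor shAsns-1 B or Tumor shRenilla A, with adjusted p up to 0.0613. Sel1l lost it without Tumor shAsns-1 A or C or Tumor shRenilla A or C, with adjusted p up to 0.0863, and Ppp1r15b without Tumor shAsns-1 A or C or Tumor shRenilla B or C, with adjusted p up to 0.105.

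Both higher members were small differences close to the threshold. Xbp1, the transcription factor activated by IRE1 splicing, was at 56.8, 40.7, 36.1 and 50.8 CPM in Tumor shRenilla and at 70.6, 55.8, 69.2 and 52.5 CPM in Tumor shAsns-1, with overlapping groups. Its log2 fold change was 0.43 ± 0.17 (SE; adjusted p = 0.0476, edgeR), and 18 of 32 alternatives ended the call, with adjusted p up to 0.184. A gene count does not separate the spliced from the unspliced Xbp1 message. Sec61b, the small beta subunit of the channel, had a log2 fold change of 0.28 ± 0.11 (SE; adjusted p = 0.0457, edgeR), and 21 of 32 alternatives ended that call, with adjusted p up to 0.189.

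The sensors were not called. Atf6 averaged 73.3 ± 6.84 CPM in Tumor shAsns-1 and 87.2 ± 9.25 in Tumor shRenilla (SD, n = 4), a log2 fold change of −0.25 (adjusted p = 0.0589, edgeR). This value passed the threshold in 8 of 32 alternatives, for example without Tumor shAsns-1 D, Tumor shRenilla D, Lung shAsns-1 C, Lung shAsns-2 B, Lung shAsns-2 D or Lung shRenilla B, with adjusted p down to 0.0135. Ern1 had a log2 fold change of −0.39 (adjusted p = 0.142, edgeR; 0.0377 without both far libraries, where it was called) and Eif2ak3 of −0.18 (adjusted p = 0.421, edgeR). The remaining uncalled members ranged from −0.40 for Ppp1r15a, the inducible eIF2α phosphatase subunit, to 0.19 for Edem1, which selects glycoproteins for degradation. Manf, a secreted ER stress protein, had a log2 fold change of 0.03.

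**Figure D1:**
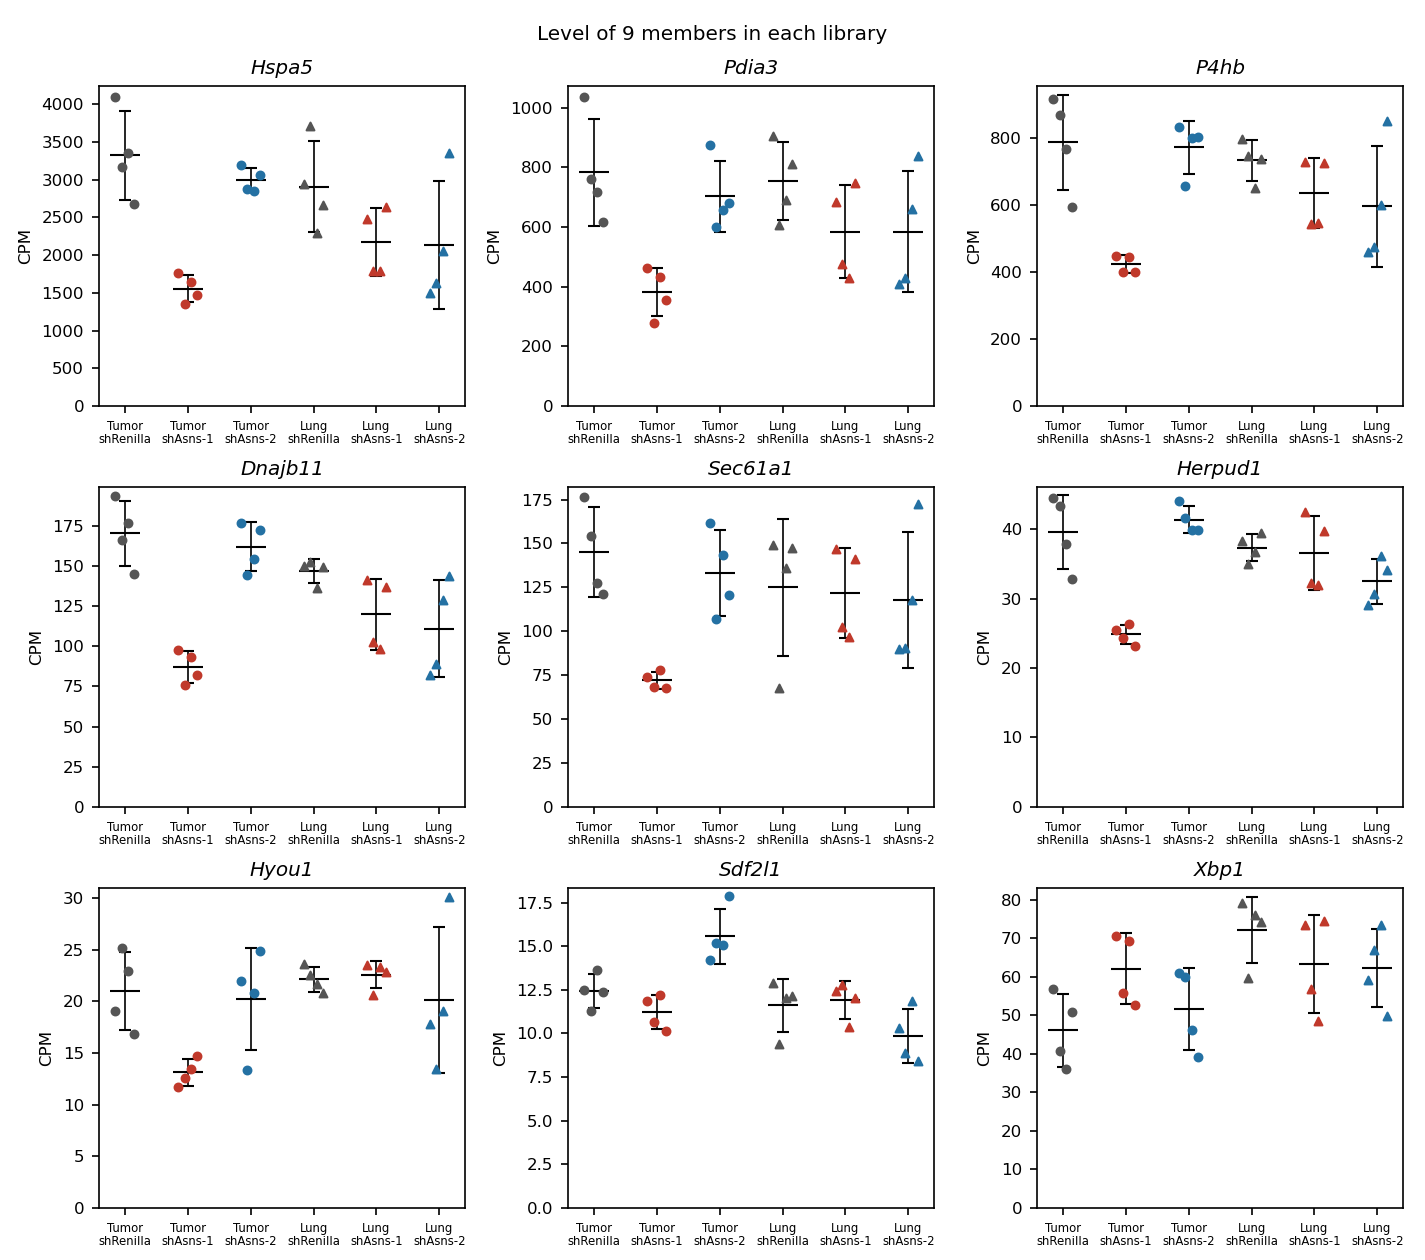
CPM (linear axis from 0) of 9 members in each of the 24 libraries, by group; points are libraries, horizontal lines group means and bars ± SD (n = 4). The 4 Tumor shAsns-1 libraries of Hspa5 sit between 1356 and 1758 CPM, below all Tumor shRenilla and Tumor shAsns-2 libraries.

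Markers of cell identity differed in the same comparison. The summed level of 6 epithelial markers was 452 to 606 CPM in Tumor shAsns-1, 739 to 892 in Tumor shRenilla and 903 to 1040 in Tumor shAsns-2. Of these, Cdh1 averaged 36.4 against 226 CPM and Epcam 19.6 against 78.4 CPM in Tumor shAsns-1 and Tumor shRenilla, while Krt8 averaged 206 and 174 CPM. The sum of 8 fibroblast markers, nearly all of it Pdgfra, was 23.9 to 32.3 CPM in Tumor shAsns-1, 15.6 to 18.0 in Tumor shRenilla and 16.2 to 20.8 in Tumor shAsns-2, and Pdgfrb and Thy1 were at 0 in all Tumor shAsns-1 libraries. Macrophage markers summed to 10.1 to 25.7 CPM over all libraries, mostly Cd14, while endothelial sums reached at most 1.39, lymphocyte sums 0.202 and lung epithelial sums 0.253 CPM. The part of these differences in the member results was not tested.

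Promoters were searched for motifs of the ER stress response. The members were chosen as genes of that response, so the share with such motifs is not independent of the choice. The ER stress element (ERSE), bound by NF-Y together with ATF6 or XBP1, was searched as CCAAT, then 9 bases of any kind, then CCACG, on both strands. The window ran from 250 bases before to 50 bases after each RefSeq start in the GRCm38.p6 build. Of the 33 members, 26 had a window, and 9 of these (34.6%) held an ERSE, against 37 of 27025 genes (0.137%) and 39 of 32851 windows (0.119%). The members with an ERSE were Hspa5, Hsp90b1, Calr, Canx, Pdia6, Dnajc3, Creld2, Syvn1 and Derl3. Of the 6 members with the largest called changes in Tumor shAsns-1 against Tumor shRenilla, Hspa5 held an ERSE, Pdia3, Dnajb11, P4hb and Pdia4 did not, and Sec61a1 had no window. The upstream 250 bases are given here for Hspa5 and the next 4 of these in the order of the member list, to show where the element lies in chaperone genes that did and did not fall. Sequences are from RefSeq, 5′ to 3′ along the gene, with the ERSE (or its reverse complement) in capitals. They are chr2:34771840-34772089 (plus strand) for Hspa5, chr10:86705445-86705694 (minus strand) for Hsp90b1, chr8:84846932-84847181 (minus strand) for Calr, chr11:50325674-50325923 (minus strand) for Canx and chr12:17266339-17266588 (plus strand) for Pdia6.
Hspa5: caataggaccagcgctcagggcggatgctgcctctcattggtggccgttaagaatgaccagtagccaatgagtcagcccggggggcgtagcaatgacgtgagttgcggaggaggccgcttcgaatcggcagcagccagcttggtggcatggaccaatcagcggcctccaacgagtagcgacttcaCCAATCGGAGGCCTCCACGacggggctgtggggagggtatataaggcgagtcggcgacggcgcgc
Hsp90b1: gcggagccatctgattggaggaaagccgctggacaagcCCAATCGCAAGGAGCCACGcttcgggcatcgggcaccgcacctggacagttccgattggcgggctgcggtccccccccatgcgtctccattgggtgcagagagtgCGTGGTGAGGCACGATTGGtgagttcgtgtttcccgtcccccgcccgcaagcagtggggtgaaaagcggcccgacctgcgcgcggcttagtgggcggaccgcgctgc
Calr: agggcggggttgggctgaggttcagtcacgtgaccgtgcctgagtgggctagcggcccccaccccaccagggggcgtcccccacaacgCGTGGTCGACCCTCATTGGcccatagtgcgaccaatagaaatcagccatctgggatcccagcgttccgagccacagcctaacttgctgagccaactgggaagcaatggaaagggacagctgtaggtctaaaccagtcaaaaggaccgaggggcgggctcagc
Canx: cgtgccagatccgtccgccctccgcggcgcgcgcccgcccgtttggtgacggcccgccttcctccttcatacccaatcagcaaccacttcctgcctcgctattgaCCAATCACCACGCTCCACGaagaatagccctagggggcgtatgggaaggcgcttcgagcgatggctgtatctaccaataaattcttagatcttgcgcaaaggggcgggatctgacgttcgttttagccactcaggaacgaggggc
Pdia6: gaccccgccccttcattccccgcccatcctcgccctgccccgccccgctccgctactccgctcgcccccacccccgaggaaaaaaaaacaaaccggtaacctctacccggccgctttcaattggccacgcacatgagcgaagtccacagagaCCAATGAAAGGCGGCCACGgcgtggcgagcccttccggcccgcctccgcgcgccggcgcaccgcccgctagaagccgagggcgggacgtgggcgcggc
The Hspa5 element runs from base −65 to base −47 before the RefSeq start site on the plus strand. The Hspa5 span given earlier is from GENCODE M21 and begins upstream of that start, so the element lies inside that span. GENCODE M21 also starts Hsp90b1, Calr and Pdia6 upstream of their RefSeq starts. Hsp90b1 holds a pair, from −212 to −194 in the gene's direction and from −107 to −89 in the other direction. The Calr element lies from −162 to −144 in the reverse direction, the Canx element from −145 to −127 and the Pdia6 element from −98 to −80, both in the gene's direction.

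The related shorter element ERSE-II was found in Dnajb11 and Herpud1, which is 7.69% of members with a window, against 0.0444% of all genes. Its letters (ATTGG, any base, CCACG) share the CCACG end with the ERSE, and no member held both. The UPRE core TGACGTGG was found in Txndc5 (3.85% of members against 0.714% of genes) and the CARE motif TGATGNAA, linked to ATF4, in Herpud1 and Txndc5 (7.69% against 4.51%). A match is a description of the letters in this window and not evidence of binding. Of the 8 tested members with an ERSE, 5 were lower in Tumor shAsns-1 than in Tumor shRenilla, with a median log2 fold change of −0.67. Of the 17 tested members with a window but no ERSE, 9 were lower and 2 were higher, with a median of −0.39. The second class includes Dnajb11 and Herpud1, which hold an ERSE-II, so it is not a class without any ER stress element. The difference between these classes was not tested. Canx holds an ERSE and was not called, at 3416, 2110, 2019 and 2312 CPM in Tumor shRenilla and 2222, 2136, 2040 and 1868 CPM in Tumor shAsns-1.

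With the second hairpin, shAsns-2, no member passed the test against Tumor shRenilla in tumor-derived cells by edgeR, DESeq2 or limma, and 0.0634% of all genes were called (edgeR). An unadjusted p under 0.05 (edgeR) was found for 2 members, Sdf2l1 and Edem1, and for 7.07% of all genes. This comparison shares its control libraries with the one above. Log2 fold changes of the members ran from −0.16 (Pdia3) to 0.33 (Syvn1, the ubiquitin ligase HRD1), with a median of 0.02. Hspa5 was at 3191, 2882, 2849 and 3061 CPM in Tumor shAsns-2, inside the control range, with a log2 fold change of −0.15 ± 0.20 (SE; adjusted p = 0.904, edgeR). The regulators Xbp1, Atf6, Ern1 and Eif2ak3 had log2 fold changes of 0.16, 0.13, −0.13 and 0.20, with adjusted p from 0.845 to 0.924 (edgeR).

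**Figure D2:**
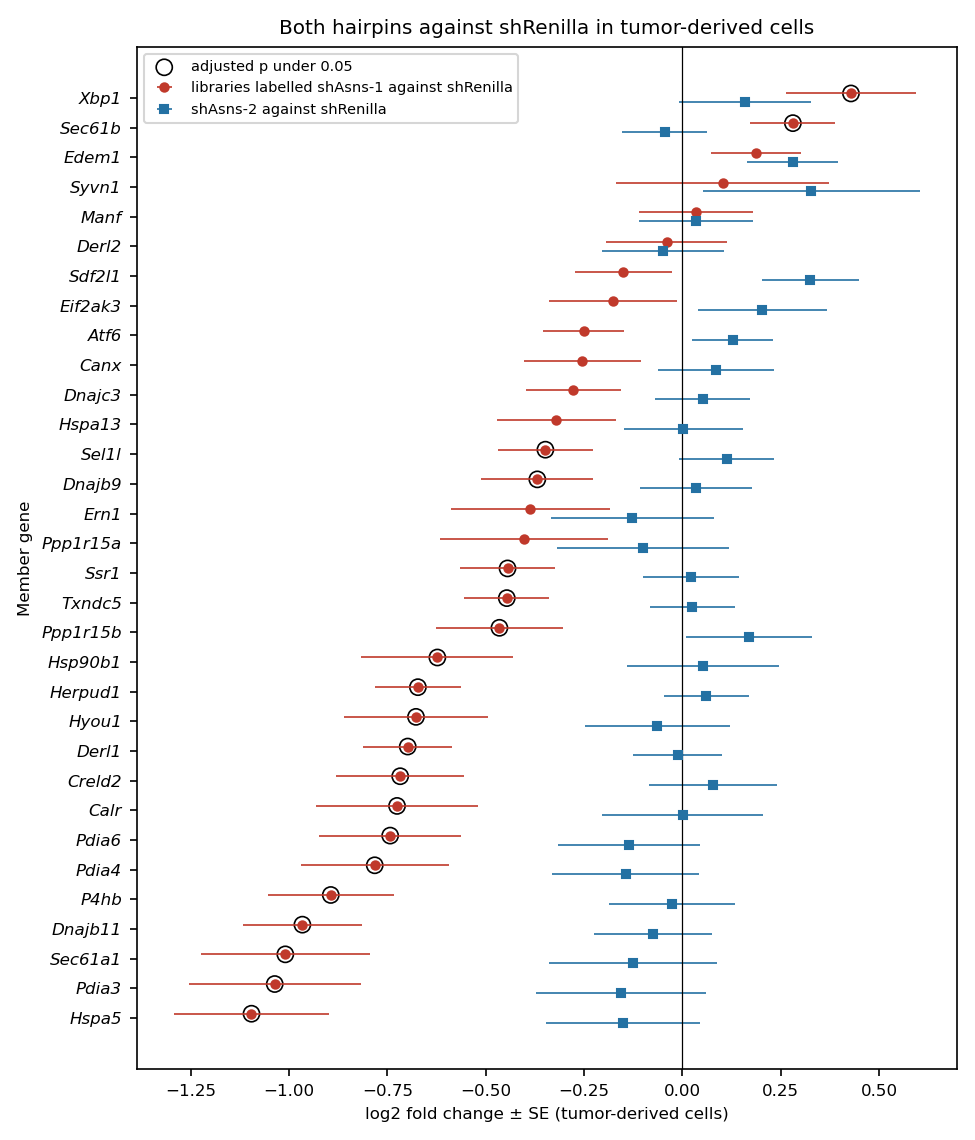
Log2 fold change ± SE against Tumor shRenilla for each of 32 members (rows) in the libraries labelled shAsns-1 (circles; 4 against 4) and shAsns-2 (squares; 4 against 4); black rings mark an adjusted p under 0.05. The shAsns-1 values run from −1.10 to 0.43 and the shAsns-2 values from −0.16 to 0.33, and both share the same control libraries.

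Set directly against each other in tumor-derived cells, the 2 labels differed at 22 of 32 members. In the libraries labelled shAsns-1, 21 members were lower and 1 was higher, against 15% and 12.1% of all genes. The median was −0.47, against −0.02 over all genes, and the groups did not overlap downward for 19 members, as for 15.8% of all genes. Leaving out 1 library at a time gave 18 to 24 calls, and there were 24 without both far libraries. Hspa5 had a log2 fold change of −0.95 ± 0.20 (SE; adjusted p = 0.000819, edgeR) and Dnajb11, at 177, 144, 154 and 173 CPM in Tumor shAsns-2, of −0.89 ± 0.15 (SE; adjusted p = 8.81e-05, edgeR). The 4 Tumor shAsns-2 libraries of both genes lay above all libraries labelled shAsns-1.

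Pdia3 was at 874, 600, 656 and 680 CPM in Tumor shAsns-2 and had a log2 fold change of −0.88 ± 0.22 (SE; adjusted p = 0.00387, edgeR). P4hb was at 833, 657, 802 and 802 CPM and had a log2 fold change of −0.87 ± 0.16 (SE; adjusted p = 0.000238, edgeR). Sec61a1 was at 162, 107, 144 and 120 CPM and fell by 0.88 ± 0.22 on the log2 scale (SE; adjusted p = 0.00336, edgeR). Each of these genes separated the 2 groups completely. Creld2 was at 49.8, 33.6, 44.6 and 50.2 CPM in Tumor shAsns-2 and at 27.8, 23.4, 26.4 and 24.7 CPM in Tumor shAsns-1, and fell by 0.80 ± 0.16 (SE, log2; adjusted p = 0.000731, edgeR).

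The other lower members shared with the list against shRenilla were Herpud1, Calr, Derl1, Hsp90b1, Pdia4, Ppp1r15b, Hyou1, Pdia6, Txndc5, Ssr1, Sel1l and Dnajb9, from −0.73 to −0.40. Pdia4 lost its call without Tumor shAsns-1 B (adjusted p = 0.0594), Pdia6 without Tumor shAsns-1 B, Tumor shAsns-1 D or Tumor shAsns-2 A, with adjusted p up to 0.0634, and Hyou1 without Tumor shAsns-1 A or Tumor shAsns-2 D, with adjusted p up to 0.0737. The Dnajb9 call ended in 8 of 32 alternatives, with adjusted p up to 0.129.

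Calls made here and not against shRenilla were Atf6, Sdf2l1 and Dnajc3. Atf6 was at 93.7, 99.9, 87.9 and 99.6 CPM in Tumor shAsns-2 and at 63.9, 73.0, 76.5 and 79.7 CPM in Tumor shAsns-1, without overlap, a log2 fold change of −0.38 ± 0.10 (SE; adjusted p = 0.00761, edgeR). Sdf2l1, which joins the BiP and ERdj3 complex, was at 14.2, 15.2, 15.0 and 17.9 against 11.9, 10.7, 12.2 and 10.1 CPM, and had a log2 fold change of −0.48. Dnajc3, the J-domain protein p58IPK, had one of −0.33 (adjusted p = 0.0446, edgeR), and 18 of 32 alternatives ended its call, with adjusted p up to 0.141. Xbp1, Ern1 and Eif2ak3 were not called, with log2 fold changes of 0.27, −0.26 and −0.38 and adjusted p of 0.239, 0.373 and 0.0863 (edgeR); Eif2ak3 was called without Tumor shAsns-2 C, Lung shRenilla B or both far libraries, with adjusted p down to 0.0239. The higher member was Sec61b, with a log2 fold change of 0.33 ± 0.11 (SE; adjusted p = 0.0264, edgeR). It was not called without Tumor shAsns-1 A, Tumor shAsns-2 A or Tumor shAsns-2 C, with adjusted p up to 0.0955.

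The rest of the secretory pathway was described by 7 lists of other genes, 122 in all, of which 113 were tested. Against Tumor shAsns-2, 46 of the 113 were lower and 6 higher in Tumor shAsns-1, with a median of −0.32, beside the 15% lower and 12.1% higher of all genes. Against Tumor shRenilla 49 were lower and 8 higher, with a median of −0.29, beside 17.7% and 16.2% of all genes. Among 26 other folding enzymes 13 were lower than in Tumor shAsns-2, led by the BiP exchange factor Sil1 (−1.07), the isomerase Pdia5 (−0.97) and the J-domain protein Dnajc1 (−0.72). Among 13 glycosylation genes 7 were lower, led by the oligosaccharyltransferase subunits Rpn1 (−1.01) and Stt3a (−0.84) and the glucosidase Mogs (−0.85), and the glycoprotein sensor Uggt2 was higher (0.58). Among 18 translocon and signal peptidase genes 8 were lower, led by Sec11c (−0.84), Srprb (−0.62) and Sec63 (−0.61). Among 19 ER to Golgi transport genes 6 were lower, led by the KDEL receptor Kdelr2 (−0.98), Tmed10 (−0.55) and Lman1 (−0.52), and the coat protein gene Sec23a was higher (0.37). Among 18 degradation genes 5 were lower, among them Edem2 (−0.53) and Faf2 (−0.51), and among 9 ATF6 and IRE1 partners 4 were lower, led by Tmem33 (−0.62), Tmbim6 (−0.56) and Bfar (−0.55).

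The list of PERK arm and integrated stress response genes did not move in 1 direction. Of these 10 genes 3 were lower and 4 were higher in Tumor shAsns-1 than in Tumor shAsns-2. The list does not set genes of the PERK arm apart from the others. The transcription factors Atf3 and Atf4 had log2 fold changes of −1.11 ± 0.12 and −0.32 ± 0.12 (SE; adjusted p = 1.56e-07 and 0.0464, edgeR), and Chac1, a glutathione-degrading enzyme, of −0.61. Nupr1, Cebpb and Ddit3, which encodes CHOP, were higher, with log2 fold changes of 0.73, 0.69 and 0.65.

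In lung-derived cells no member was called between hairpins by edgeR. Of all genes 0.206% were called against Lung shRenilla in the libraries labelled shAsns-1 and 0% in shAsns-2. In the libraries labelled shAsns-1, 9 members had an unadjusted p under 0.05, as had 13.2% of all genes, and 26 of 32 log2 fold changes were negative (median −0.19). In shAsns-2, 12 members had an unadjusted p under 0.05, as had 8.46% of all genes, and 29 of 32 were negative (median −0.25). Over all genes 49.1% and 51.6% of log2 fold changes were negative in the same order, with medians of 0.006 and −0.008. The 2 comparisons share their control libraries. DESeq2 also called 0 members in both, whereas limma with library weights called 1 member lower in shAsns-1 and 19 lower in shAsns-2, against 3.11% and 9.06% of all genes called lower by limma. Between the 2 hairpins 1 member, Sdf2l1, had an unadjusted p under 0.05, as had 5.6% of all genes, and edgeR called 0.261% of all genes. There limma called 7 members, all higher in the libraries labelled shAsns-1, against 8.63% of all genes called higher by limma, and DESeq2 called 0 members.

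Hspa5 was at 2948, 3714, 2294 and 2660 CPM in Lung shRenilla, at 2477, 1788, 1788 and 2644 CPM in Lung shAsns-1 and at 1493, 1624, 2060 and 3351 CPM in Lung shAsns-2. The groups overlapped, and Lung shAsns-2 D stood well above the other 3 libraries of its group. Log2 fold changes against Lung shRenilla were −0.42 ± 0.20 for shAsns-1 and −0.45 ± 0.20 for shAsns-2 (SE; adjusted p = 0.367 and 0.541, edgeR), and limma called the second, with an adjusted p of 0.00234. The lowest value in both comparisons was that of Pdia4, at −0.46 and −0.48. The regulators Xbp1, Atf6, Ern1 and Eif2ak3 had log2 fold changes of −0.19, −0.08, −0.07 and −0.19 in shAsns-1 and of −0.21, −0.05, 0.04 and −0.45 in shAsns-2, with adjusted p from 0.470 to 0.969 (edgeR), and limma called Eif2ak3 in shAsns-2, with an adjusted p of 0.0236. Between the hairpins, Hspa5, Xbp1, Atf6, Ern1 and Eif2ak3 differed by 0.03, 0.02, −0.03, −0.11 and 0.26, with adjusted p from 0.994 to 0.998 (edgeR), and limma called Eif2ak3, with an adjusted p of 0.0181. The sign of several of these small values changed with the processing.

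**Figure D3:**
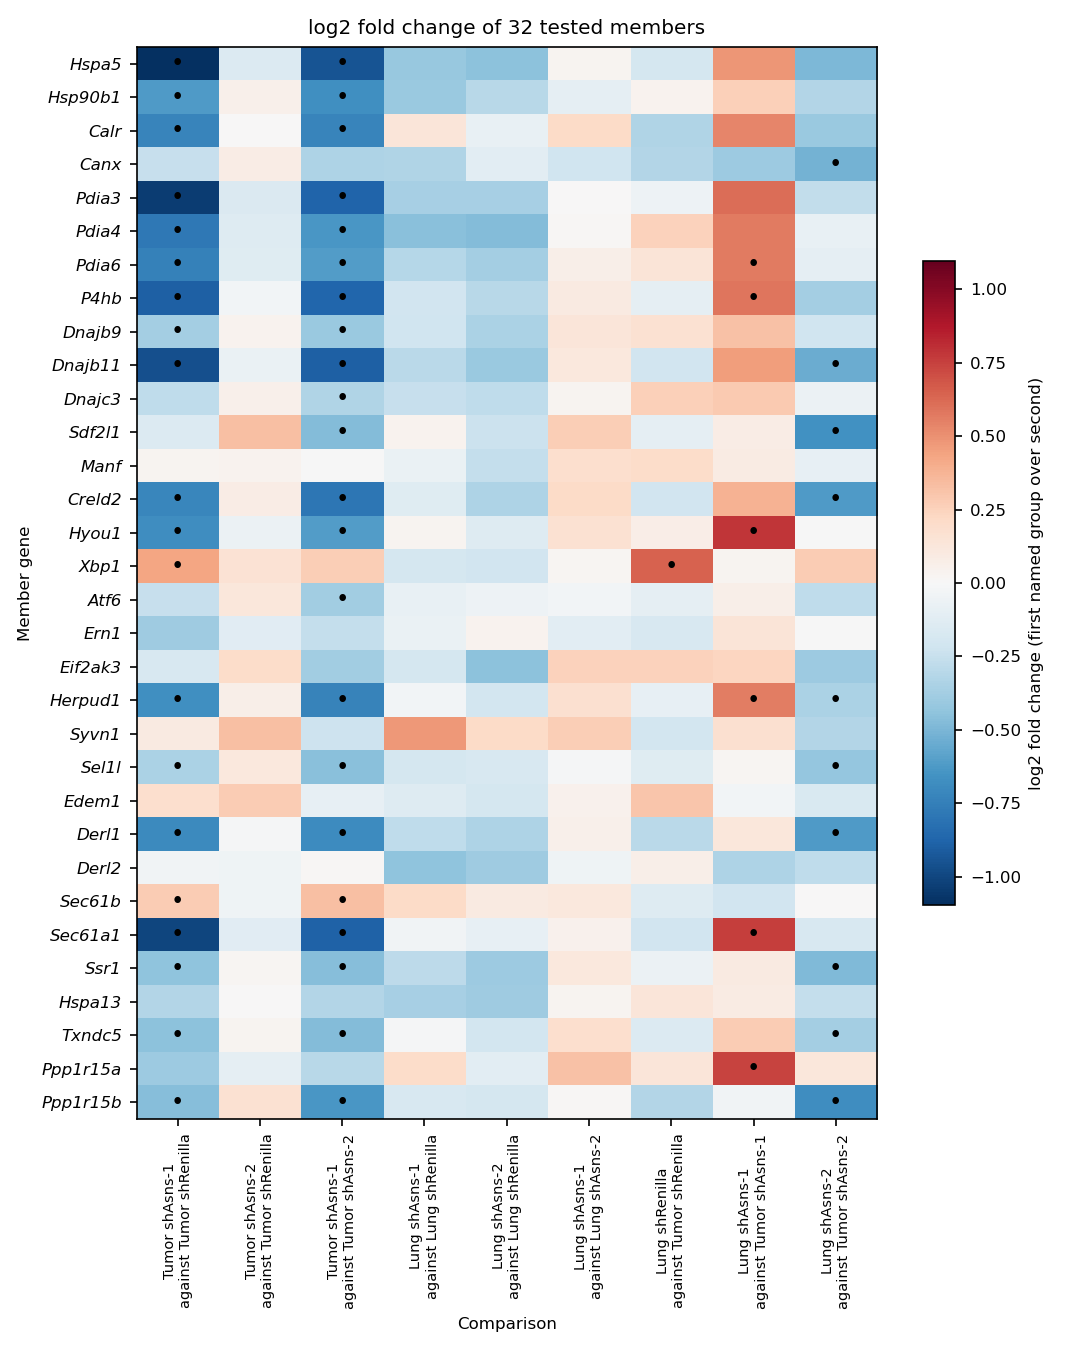
Log2 fold change (colour) of 32 members (rows) in 9 comparisons of 4 against 4 libraries (columns), first named group over second; dots mark an adjusted p under 0.05. Dots number 20 and 22 in the 2 tumor comparisons with the libraries labelled shAsns-1 and 0 in the 3 lung comparisons between hairpins.

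Between sites with the control hairpin, Xbp1 was the only member called. It was at 79.0, 59.7, 76.0 and 74.0 CPM in Lung shRenilla, all above Tumor shRenilla. The log2 fold change was 0.65 ± 0.17 (SE; adjusted p = 0.00568, edgeR), and none of the 32 alternatives ended the call. Of all genes 12% were higher and 9.82% were lower in the lung cells. The count of members called rose from 1 to 2 without Tumor shAsns-1 A, Tumor shAsns-2 A, Tumor shRenilla C, Tumor shRenilla D, Lung shAsns-1 D, Lung shAsns-2 B or Lung shRenilla D, to 3 without Lung shAsns-2 D or Lung shRenilla B, and to 4 without both. Hspa5, Atf6, Ern1 and Eif2ak3 had log2 fold changes of −0.20, −0.10, −0.17 and 0.25, with adjusted p from 0.281 to 0.580 (edgeR).

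With the libraries labelled shAsns-1, 6 members were higher in lung-derived than in tumor-derived cells and none was lower, against 6% and 2.54% of all genes. The median was 0.25, against 0.03 over all genes, and the groups did not overlap upward for 10 members, as for 15.5% of all genes. Downward they did not overlap for 2 members, as for 1827 of 12625 genes. Canx was at 1305 to 1810 CPM in Lung shAsns-1 against 1868 to 2222 in Tumor shAsns-1. Sec61b was at 283 to 292 against 311 to 370 CPM, and neither was called. Hyou1, which recharges BiP with nucleotide, was at 23.5, 20.6, 23.4 and 22.9 CPM in Lung shAsns-1 and at 11.7, 12.6, 13.5 and 14.7 CPM in Tumor shAsns-1. Its groups were far apart, with a log2 fold change of 0.78 ± 0.18 (SE; adjusted p = 0.0093, edgeR). Herpud1, a membrane component of the degradation complex, was at 42.4, 32.3, 31.9 and 39.8 CPM against 25.5, 24.4, 26.4 and 23.2 CPM, and had a log2 fold change of 0.56 ± 0.11 (SE; adjusted p = 0.0021, edgeR). These 2 members kept their call in all 32 alternatives.

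Sec61a1 was at 147, 102, 97.0 and 141 CPM in Lung shAsns-1, above all Tumor shAsns-1 libraries, and had a log2 fold change of 0.76 ± 0.21 (SE; adjusted p = 0.0271, edgeR). P4hb was at 729, 544, 547 and 725 CPM, also without overlap, and had a log2 fold change of 0.59 ± 0.16 (SE; adjusted p = 0.0222, edgeR). In both genes, replicates A and D of Lung shAsns-1 were the higher pair. The same held for Hspa5 and for the mean log2 CPM of the 32 tested members (6.85 and 6.88, against 6.61 and 6.55 in B and C). Beyond the members, B with C and A with D were the most alike of this group. Their chi-square per degree of freedom was 4.96 and 8.96, against 14.6 to 29.4 for the other pairs. Whether the 4 libraries are independent was not tested. Ppp1r15a was at 4.80, 4.51, 5.40 and 5.64 CPM against 1.98, 3.51, 3.49 and 3.14 CPM, a log2 fold change of 0.74 ± 0.21 (SE; adjusted p = 0.0288, edgeR). Pdia6 was at 306, 217, 196 and 330 CPM against 204, 141, 200 and 160 CPM, with overlap, and had a log2 fold change of 0.57 ± 0.18 (SE; adjusted p = 0.0479, edgeR). The Pdia6 call ended in 21 of 32 alternatives, with adjusted p up to 0.194.

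The count of 6 depended on single libraries. It was 2 without Tumor shAsns-1 B, Tumor shAsns-1 D, Lung shAsns-1 A or Lung shAsns-1 D, 3 without Tumor shAsns-1 A, 10 without Lung shAsns-2 D or Lung shRenilla B, and 14 without both. Sec61a1 lost its call without any of the 4 Tumor shAsns-1 libraries or without Lung shAsns-1 A or D, with adjusted p up to 0.114. P4hb lost it without Tumor shAsns-1 B or D or Lung shAsns-1 A or D, with adjusted p up to 0.0978, and Ppp1r15a without Tumor shAsns-1 A, B or D or Lung shAsns-1 A, C or D, with adjusted p up to 0.125. Hspa5 was not called, at 0.48 ± 0.20 (SE; adjusted p = 0.118, edgeR), although all 4 lung libraries lay above all 4 tumor libraries; without Lung shAsns-2 D its adjusted p passed the threshold. Xbp1, Atf6, Ern1 and Eif2ak3 had log2 fold changes of 0.03, 0.07, 0.14 and 0.24, with adjusted p from 0.365 to 0.936 (edgeR). The fibroblast marker sum was 34.2 to 69.7 CPM in Lung shAsns-1, above the 23.9 to 32.3 CPM of Tumor shAsns-1. Besides Pdgfra, Lung shAsns-1 libraries ran from 0.895 to 8.53 CPM for Col1a2, 0.311 to 8.53 for Col3a1 and 1.31 to 8.61 for Dcn. In Tumor shAsns-1 these genes reached at most 1.39, 0.0564 and 0.694 CPM. The macrophage marker Lyz2 ran from 1.36 to 7.84 CPM in Lung shAsns-1, against at most 0.676 in Tumor shAsns-1. The epithelial sum was 421 to 474 against 452 to 606 CPM, and the part of all these markers in the member differences was not tested.

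With shAsns-2 the called members went the other way between sites: 10 members were lower in lung-derived cells and none was higher, against 10.9% and 10.1% of all genes. The median was −0.30, against 0.01 over all genes, and the groups did not overlap downward for 7 members, as for 9.66% of all genes. Ppp1r15b, the constitutive eIF2α phosphatase subunit, was at 103, 99.2, 99.5 and 128 CPM in Lung shAsns-2 and at 153, 170, 153 and 213 CPM in Tumor shAsns-2. All lung libraries were lower, with a log2 fold change of −0.68 ± 0.16 (SE; adjusted p = 0.00318, edgeR). Sdf2l1 was at 10.3, 8.85, 11.8 and 8.42 CPM in Lung shAsns-2, below its Tumor shAsns-2 values given above, and fell by 0.66 ± 0.13 (SE, log2; adjusted p = 0.000344, edgeR). Derl1, a subunit of the retrotranslocation channel, was at 198, 201, 224 and 264 CPM against 326, 349, 326 and 362 CPM, without overlap, and fell by 0.62 ± 0.11 (SE, log2; adjusted p = 0.000263, edgeR). None of the 32 alternatives ended these 3 calls.

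Creld2 was at 23.8, 21.7, 31.7 and 38.1 CPM in Lung shAsns-2, and replicate D reached into the tumor range. Its log2 fold change was −0.62 ± 0.16 (SE; adjusted p = 0.00711, edgeR), with an adjusted p of 0.0515 without Lung shAsns-2 B. Dnajb11 was at 82.0, 88.7, 129 and 144 CPM, with replicate D just under the lowest tumor library, and had a log2 fold change of −0.55 ± 0.15 (SE; adjusted p = 0.0104, edgeR). It lost its call without Lung shAsns-2 A or B, with adjusted p up to 0.0687. Canx was at 1574, 1789, 1896 and 2027 CPM against 2636, 2956, 2723 and 2138 CPM and had a log2 fold change of −0.52 ± 0.15 (SE; adjusted p = 0.013, edgeR), with an adjusted p of 0.0631 without Lung shAsns-2 A. Canx was lower in the lung-derived cells with the shAsns-1 label too, where it was not called.

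The other 4 lower members in shAsns-2 cells were Ssr1, Sel1l, Txndc5 and Herpud1, with log2 fold changes from −0.49 to −0.35. The count of 10 was 5 without Lung shAsns-2 A or Lung shAsns-2 B and reached 15 without Lung shAsns-2 D, and it was 17 without both far libraries. Sel1l and Txndc5 also lost their calls without Tumor shAsns-2 D, and Herpud1 also without Tumor shAsns-2 A. Over the alternatives their adjusted p reached 0.0630, 0.0796 and 0.109, and each lost its call without either of the same pair of Lung libraries. Hspa5 was not called, at −0.49 ± 0.20 (SE; adjusted p = 0.0762, edgeR), and was called without Lung shAsns-2 D. Xbp1, Atf6, Ern1 and Eif2ak3 had log2 fold changes of 0.27, −0.28, −0.01 and −0.40, with adjusted p from 0.0518 to 0.982 (edgeR). Atf6 was called in 8 of 32 alternatives, among them DESeq2, limma and leaving out Lung shAsns-2 D, with adjusted p down to 0.00253. Eif2ak3 was called in 4 (limma, without Tumor shAsns-2 C, without Lung shRenilla B and without both far libraries), with adjusted p down to 0.0119.

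Markers of cell identity also differed between the sites. Epithelial marker sums were 380 to 781 CPM in Lung shAsns-2 and 903 to 1040 CPM in Tumor shAsns-2. On average Cdh1 was at 34.3 against 244 CPM and Epcam at 20.7 against 125 CPM. Krt14 and Krt7 were also lower in lung, whereas Krt8 (223 against 217 CPM) and Krt18 (335 against 274 CPM) were not. Fibroblast marker sums were 23.8 to 27.0 against 16.2 to 20.8 CPM, nearly all from Pdgfra. With shRenilla the epithelial sums were 426 to 596 CPM in lung and 739 to 892 CPM in tumor. There too Krt8 (182 against 174 CPM) and Krt18 (294 against 233 CPM) were not lower in lung on average. The fibroblast sums with shRenilla were 26.3 to 51.2 against 15.6 to 18.0 CPM. The part of these differences in the member results was not tested.

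A test of whether the hairpin difference itself changed with site called 5 members for shAsns-1 against shRenilla, all with a higher value in lung than in tumor, against 6.96% of all genes higher and 7.27% lower. Sec61a1 differed by 0.97 ± 0.30 (SE, log2; adjusted p = 0.0312, edgeR), Calr, the lumenal lectin chaperone, by 0.86 ± 0.29 (adjusted p = 0.0468), and P4hb by 0.69 ± 0.23 (adjusted p = 0.0409). Dnajb11 differed by 0.67 ± 0.21 (adjusted p = 0.0337) and Herpud1 by 0.64 ± 0.15 (adjusted p = 0.00543). Calr was at 508, 466, 478 and 377 CPM in Tumor shRenilla and 291, 260, 278 and 278 in Tumor shAsns-1. In the lung cells Calr was at 442, 219, 385 and 413 CPM in shRenilla and 458, 352, 351 and 439 in shAsns-1. The low control, Lung shRenilla B, was also the low library of Sec61a1, which was at 149, 67.5, 136 and 147 CPM in Lung shRenilla. P4hb was at 798, 748, 652 and 737 CPM in Lung shRenilla, Dnajb11 at 150, 152, 136 and 149 and Herpud1 at 38.2, 34.9, 36.6 and 39.4 CPM, and there Lung shRenilla B was not apart. Dnajb11 was at 141, 103, 98.6 and 137 CPM in Lung shAsns-1.

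Herpud1 kept this call in all 32 alternatives, with adjusted p from 0.00174 to 0.0182. Calr lost it in 20, P4hb in 13, Sec61a1 in 9 and Dnajb11 in 8 of 32, with adjusted p up to 0.117, 0.106, 0.0986 and 0.0851; Calr, Sec61a1 and P4hb lost it without Lung shRenilla B. The count of 5 was 1 without Tumor shAsns-1 B, Tumor shAsns-1 D, Tumor shRenilla A, Tumor shRenilla B, Lung shAsns-1 A or Lung shAsns-1 D. It was 2 without Tumor shRenilla C or Lung shRenilla C, 3 without Tumor shAsns-1 A, Tumor shAsns-1 C or Lung shAsns-2 C, 8 without Tumor shRenilla D, 9 without Lung shAsns-2 D and 11 without both far libraries. Hspa5, Xbp1, Atf6, Ern1 and Eif2ak3 had differences of 0.68, −0.62, 0.17, 0.31 and −0.01, with adjusted p from 0.0756 to 0.975 (edgeR), and Hspa5 was called in 5 of 32 alternatives, among them without Lung shAsns-2 D or Lung shRenilla B, with adjusted p down to 0.00529. Xbp1, with the opposite sign, was called in 4 (limma, offsets for GC content and length, without Lung shRenilla B and without both far libraries), with adjusted p down to 0.00460. For shAsns-2 against shRenilla no member was called by edgeR, DESeq2 or limma, and edgeR called 0% of all genes. An unadjusted p under 0.05 (edgeR) was found for 4 members and for 4.74% of all genes. There the differences of the same 5 genes were −0.30, −0.37, −0.18, 0.16 and −0.65, with adjusted p from 0.972 to 0.974 (edgeR).

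The mean log2 CPM of the 32 tested members gives each library's level of the module. It was 6.40 to 6.52 in Tumor shAsns-1, 6.70 to 7.08 in Tumor shRenilla and 6.84 to 7.01 in Tumor shAsns-2. In the lung cells it was 6.78 to 6.92 in shRenilla, 6.55 to 6.88 in shAsns-1 and 6.44 to 6.91 in shAsns-2. Lung shAsns-2 D was the highest of its group, and the 4 Tumor shAsns-1 libraries lay below every library of the other groups except 2 of Lung shAsns-2.

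**Figure D4:**
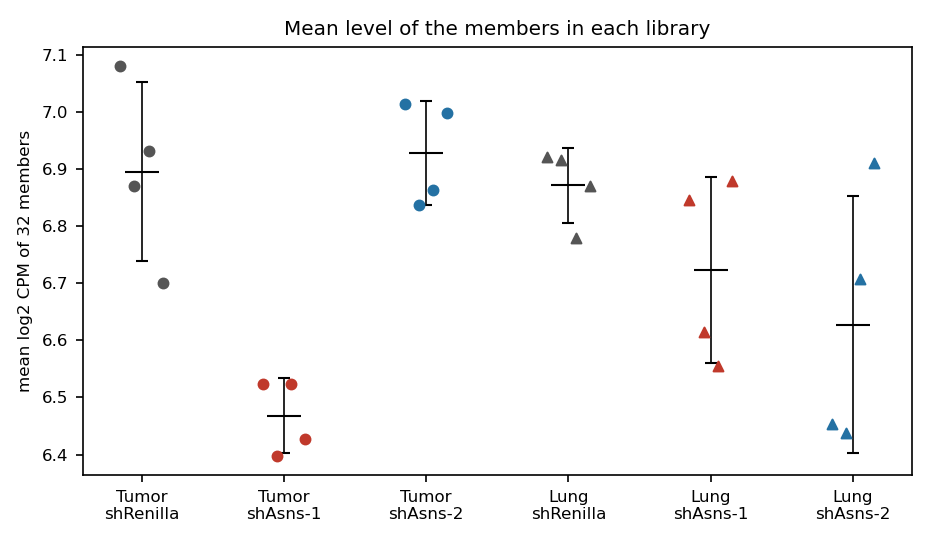
Mean log2 CPM of the 32 tested members (vertical axis, not starting at 0) in each library by group; points are libraries, lines group means and bars ± SD (n = 4). Tumor shAsns-1 lies between 6.40 and 6.52, and Lung shAsns-2 spans 6.44 to 6.91.

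Members differed in how closely they followed Hspa5. Over the 24 libraries, which share the groups, Pearson's r of log2 CPM with Hspa5 was 0.96 for Dnajb11, 0.95 for Hsp90b1, 0.95 for P4hb, 0.91 for Ssr1 and 0.89 for Pdia3. After each group's mean was removed, it was 0.97 for Hsp90b1, 0.89 for both Dnajb11 and P4hb and 0.77 for Pdia3. At the other end over the 24 libraries were Syvn1 and Ppp1r15a, both at 0.03, Xbp1 at −0.25 and Sec61b at −0.56. With group means removed, Syvn1 was at 0.24, Ppp1r15a at −0.36, Xbp1 at 0.04 and Sec61b at −0.26. These values describe the libraries and are not a test.

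The spans of some members overlap other annotated genes, and whether the counting used strand is not given in the sources used here. Whether exons of such pairs overlap was not examined, so how far their reads can be told apart is not known. GENCODE M21 places protein-coding genes on the opposite strand over part of the span of Pdia3 (Catsper2), Pdia6 (Atp6v1c2), Derl2 (Mis12), Ppp1r15a (Tulp2), Syvn1 (Mrpl49), Txndc5 (Bmp6) and Manf (Dcaf1). Rbm15b, also protein-coding, overlaps the span of Manf on the same strand.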

How the data were processed

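RNA was extracted with Trizol and made into libraries with NuGEN Ovation RNAseq V2, per the labels' protocols. The authors deposited 1 table of raw counts per gene symbol for the 24 libraries. Bowtie2, HTSeq and mm10 are named in the submitters' processing notes; versions, annotation, strand setting and filters are not given in the sources used here. From the deposited counts, edgeR 4.0.16 (R 4.3.3) was fitted once to all 6 groups with TMM scaling, filterByExpr and robust quasi-likelihood tests, for 9 pairwise comparisons and 2 site differences. P-values were adjusted by Benjamini-Hochberg over all 12625 tested genes within each comparison, at a threshold of 0.05. CPM uses TMM-scaled totals. The common biological coefficient of variation was 14.9%, and the tests used a quasi-likelihood dispersion for each gene. Levels per kilobase divide CPM by the merged exon length in GENCODE M21.

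Leading genes were, per comparison, the 6 called members with the largest change; Hspa5 and the regulators Xbp1, Atf6, Ern1 and Eif2ak3 were always given. For the other lists, up to 3 genes each way were named, in the comparison with most members called. The members and lists were chosen with earlier results of these data known. Alternatives were DESeq2 1.42.0, its size factors, no filter, limma 3.58.1 with library weights, a replicate block, only the compared groups and each library left out. The scripts were tested on simulated data. Over all groups pooled, libraries with the same letter did not deviate together on average, and letters were not taken as pairs. Pairing of tumor and lung libraries within a hairpin was not tested separately.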

Additional observations from a re-analysis of the deposited data

Results flagged for a closer look

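Each member was examined in each group of 4 libraries for a highest or lowest library far from the other 3 relative to the whole range of the group (Dixon's criterion). Of 192 groups 13 were picked out, where chance flags about 1 in 20. Of these, 6 were in Lung shRenilla B: Derl1 (356 CPM), Derl2 (198 CPM), Edem1 (95.4 CPM), Eif2ak3 (23.0 CPM) and Ppp1r15b (177 CPM) were high and Sec61a1 (67.5 CPM) was low. In Lung shAsns-2 D, Ppp1r15b was high at 128 CPM and Sec61b was low at 231 CPM. In Tumor shRenilla A, Dnajc3 (185 CPM) and Hspa13 (276 CPM), an HSP70-related protein, were high. The remaining 3 were Atf6 in Lung shAsns-1 A, low at 70.2 CPM, Derl2 in Lung shAsns-2 C, high at 139 CPM, and Pdia4 in Tumor shAsns-2 A, high at 174 CPM.

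For 5 members the difference of the shAsns-1 label from shRenilla changed with site in a test of that change (edgeR, adjusted over all genes). On the log2 scale, lung minus tumor, it was 0.97 for Sec61a1, 0.86 for Calr, 0.69 for P4hb, 0.67 for Dnajb11 and 0.64 for Herpud1.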

How the results depend on the processing

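Of 64 calls of members, DESeq2 and limma kept 64 each, and so did leaving out together the 2 far libraries, replicate D of Lung shAsns-2 and replicate B of Lung shRenilla. Others kept fewer: the replicate block 63, DESeq2 size factors and only the compared groups 60 each, offsets for GC content and length 57, no filter 54, and single-library omissions 48 to 63. None of these 64 reversed. The omission of 2 libraries and the offsets were chosen after seeing the data. Same-letter libraries of different groups had a mean r of 0.007 over 60 pairs, from −0.41 to 0.46, with 16 pairs over 0.1. Of 24 libraries, 10 were best with their own letter. These pairs pool all groups, and pairing between sites within a hairpin was not tested. With the replicate block, 20 members were called in Tumor shAsns-1 against Tumor shRenilla, as without it.

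Counts of calls moved as follows, and the cause was not tested. Apart from the limma comparisons between lung hairpins, given above, shares of all genes called are not given beside these counts. They are therefore not results about the members alone. With limma, Lung shAsns-1 against Lung shRenilla had 1, Lung shAsns-2 against Lung shRenilla 19, Lung shAsns-1 against Lung shAsns-2 7, Lung against Tumor 4 in shRenilla, 16 in shAsns-1 and 19 in shAsns-2, and the shAsns-1 site difference 11. Without the 2 libraries, Lung against Tumor had 4, 14 and 17 in the same order and the site difference 11. For shRenilla, Lung against Tumor had 2 with DESeq2 and 4 with the offsets. With only the compared groups, Lung against Tumor in shAsns-1 had 12 and the site difference 9, which without the filter had 3. Omitting single libraries gave 1 to 3, 2 to 10 and 5 to 15 for Lung against Tumor and 1 to 9 for the site difference.

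Uncalled values near 0 changed sign, given here as log2 values. With limma, Lung shAsns-1 against shRenilla gave 0.0022 for Atf6 and 0.019 for Eif2ak3, Lung shAsns-2 against shRenilla −0.33 for Ern1, and Lung shAsns-1 against shAsns-2 0.079 for Atf6, 0.13 for Ern1 and −0.11 for Xbp1. It gave −0.0254 for Xbp1 in Lung against Tumor shAsns-1, 0.13 for Eif2ak3 in the shAsns-1 site difference and −0.16 for Ern1 in that of shAsns-2. Without the 2 libraries the corresponding values were 0.026 for Eif2ak3, −0.34 for Ern1, then 0.043, 0.19 and −0.0708 for Atf6, Ern1 and Xbp1, then 0.20 for Eif2ak3 and −0.20 for Ern1. With the replicate block, Eif2ak3 was 6.47e-05 in the shAsns-1 site difference. With the offsets, Xbp1 was −0.0373 between the Lung hairpins and −0.11 in Lung against Tumor shAsns-1, and Ern1 was 0.00979 in Lung against Tumor shAsns-2, where it was 0.00994 without the filter. Omitting single libraries, the ranges were −0.10 to 0.022 (Atf6), −0.27 to 0.17 (Ern1), −0.12 to 0.31 (Hspa5) and −0.090 to 0.13 (Xbp1) between the Lung hairpins. They were −0.27 to 0.016 (Eif2ak3) and −0.16 to 0.022 (Ern1) in Lung shAsns-1 against shRenilla, −0.10 to 0.036 (Atf6) and −0.24 to 0.19 (Ern1) in Lung shAsns-2 against shRenilla, −0.0622 to 0.15 (Xbp1) and −0.28 to 0.15 (Ern1) in Lung against Tumor shAsns-1 and shAsns-2, and −0.090 to 0.19 (Eif2ak3) and −0.10 to 0.33 (Ern1) in the site differences of shAsns-1 and shAsns-2.

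Depth limits Derl3, which was not tested, and Ern1, Ppp1r15a and Syvn1, each below 10 CPM in every library.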
